A study of Xenopus laevis with 6 samples.

Results

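Semaphorins, slits and netrins are secreted or membrane-bound cues that attract or repel growing axons and migrating cells, and the genes of these cues and of their receptors were followed in Xenopus laevis animal pole explants driven towards neural crest. Members were every gene of the deposited table whose symbol, without the suffix L or S, named a semaphorin, plexin, neuropilin, slit, robo, netrin, dcc, neo1 or unc5. The rule found 76 genes of 43 symbols among 49281 genes. The suffixes mark the homeologs, the gene copies that this allotetraploid frog keeps from its ancestral L and S genomes, and 33 symbols had both copies while 10 had one. By role they were 32 semaphorins, 2 slits, 8 netrins, 4 neuropilins, 14 plexins, 6 robos and 10 netrin receptors.

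Plexins are the signalling receptors of semaphorins. Class 3 semaphorins are secreted and bind neuropilins, which hold them to class A plexins, while membrane-bound semaphorins of classes 4 to 7 bind plexins directly. Slits signal through robo receptors, and netrins through dcc and neo1, which can mediate attraction, and through unc5 proteins, which mediate repulsion. In vertebrate embryos neural crest cells carry neuropilins and plexins, and semaphorins in the tissue around them keep the migrating cells in separate streams.

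The explants were wild type and were collected at stage 17. One group received K02288, a BMP type I receptor inhibitor, together with CHIR99021, a compound that blocks GSK3 and so turns on canonical Wnt signalling, from stage 9 to 17, and is called treated below. The other received DMSO over the same stages. Per the labels the former were neural crest-reprogrammed and the latter epidermal, and both were animal pole explants. RNA of 3 libraries per group was sequenced in bulk, and the labels name no clutches and no number of explants per library, so the p-values rest on the spread among 3 libraries a group, part or all of which may be technical. Gene reads numbered 33706389 to 43155031 in DMSO libraries and 35187635 to 36618892 in treated libraries. Levels are normalized counts, reads divided by the authors' size factor of the library, and values of a group are printed in the order of its libraries a, b and c. They are not divided by transcript length, so levels were not compared between genes. The shares of L in homeolog pairs given below are not corrected for length either, and only the change of the L to S ratio between groups was tested.

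Treated library a stood nearer to the controls than the other treated libraries. Along the first principal component it lay at 106, against 187 and 196 in b and c and -170 to -156 in controls. Summed markers of epidermis (5 of 5 symbols found) ran from 720265 to 826193 normalized counts in DMSO libraries and from 34921 to 184037 in treated libraries, with the highest treated sum in library a. Multiciliated cell markers (5 of 5) ran from 20706 to 26254 and from 327 to 1011, and ionocyte markers (4 of 4) from 23495 to 29995 and from 190.3 to 863. Neural crest markers (6 of 6) ran from 529 to 757 in DMSO libraries and from 35641 to 64399 in treated libraries, and sox10.L, sox10.S and foxd3.S had no read in any control. Markers of neural plate and neurons (6 of 6) ran from 1191 to 1435 and from 4972 to 8654, those of mesoderm and muscle (5 of 5) from 34.6 to 657 and from 222 to 331, those of endoderm (3 of 4) from 37.7 to 84.9 and from 1.88 to 8.89, and those of blood and vessels (4 of 4) from 34.0 to 67.3 and from 21.9 to 94.3. In treated libraries tbx6.S and meox2.L of the mesoderm list, and in controls tal1.L and pecam1.S of the vessel list, were without a read. In bulk RNA, fewer cells of a type and less RNA per cell cannot be told apart, and the part of these cell types in the results that follow was not tested.

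Among the members called, receptor genes were mostly higher in treated explants and ligand genes mostly lower. Part of these directions was fixed by the mean filter, and the ligand count depended on the libraries used, as given below. Of 25 receptor homeologs tested, 12 rose and 2 fell (48% and 8%), and of 34 ligand homeologs 4 rose and 14 fell (11.8% and 41.2%), by limma with an adjusted p under 0.05. Over all 22932 tested genes 26.1% rose and 29.7% fell, 55.8% in all, so the 32 members called of 59 tested (54.2%) were close to the share of any gene. The edgeR count test called 54% of the same genes, and among them 17 members higher and 15 lower. The median log2 fold was -0.15 over the tested members, 0.57 over receptors and -0.70 over ligands, against 0.01 over all tested genes. A gene was tested when its mean over the 6 libraries was at least 10, and 17 members were not. Of the 59 tested, 46 had a mean of at least 10 in both groups, 7 passed through DMSO libraries alone and 6 through treated libraries alone, and members of the last 2 kinds had to differ. Of the 7, 5 were called lower, all of them ligands, and of the 6, 4 were called higher, slit1.S and 3 neuropilins. Among the 46, the receptors numbered 21, of which 9 rose and 2 fell, and the ligands 25, of which 3 rose and 9 fell. The share over all genes with such means in both groups was not computed, so these counts have no background beside them. Treated and DMSO libraries were without overlap for 36 of the 59 (61.0%), against 64.9% of all tested genes. With each library left out in turn, ligands called numbered 4 to 7 higher (7 without treated library b) and 8 to 14 lower (8 without DMSO library c), and receptors 11 to 12 higher and 2 to 4 lower (4 without treated library a). Over all genes the calls then numbered 10502 (without treated library c) to 12978 (without treated library a), against 12806 with all libraries. Without DMSO library c, 8 of 34 ligands and 5738 of 22906 genes were lower, against 14 of 34 and 6811 of 22932 with all libraries. With the library letter as a block the receptors were 12 higher and 4 lower, the ligands 5 higher and 15 lower, and all genes 6522 higher and 7276 lower. With upper quartile scaling the median of all genes became 0.22 on the log2 scale. It gave 6 higher and 12 lower ligands and 12 higher and 2 lower receptors. Of 22942 genes tested with that scaling, 7546 were higher and 5895 lower, against 5995 and 6811 in the main fit.

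**Figure D1:**
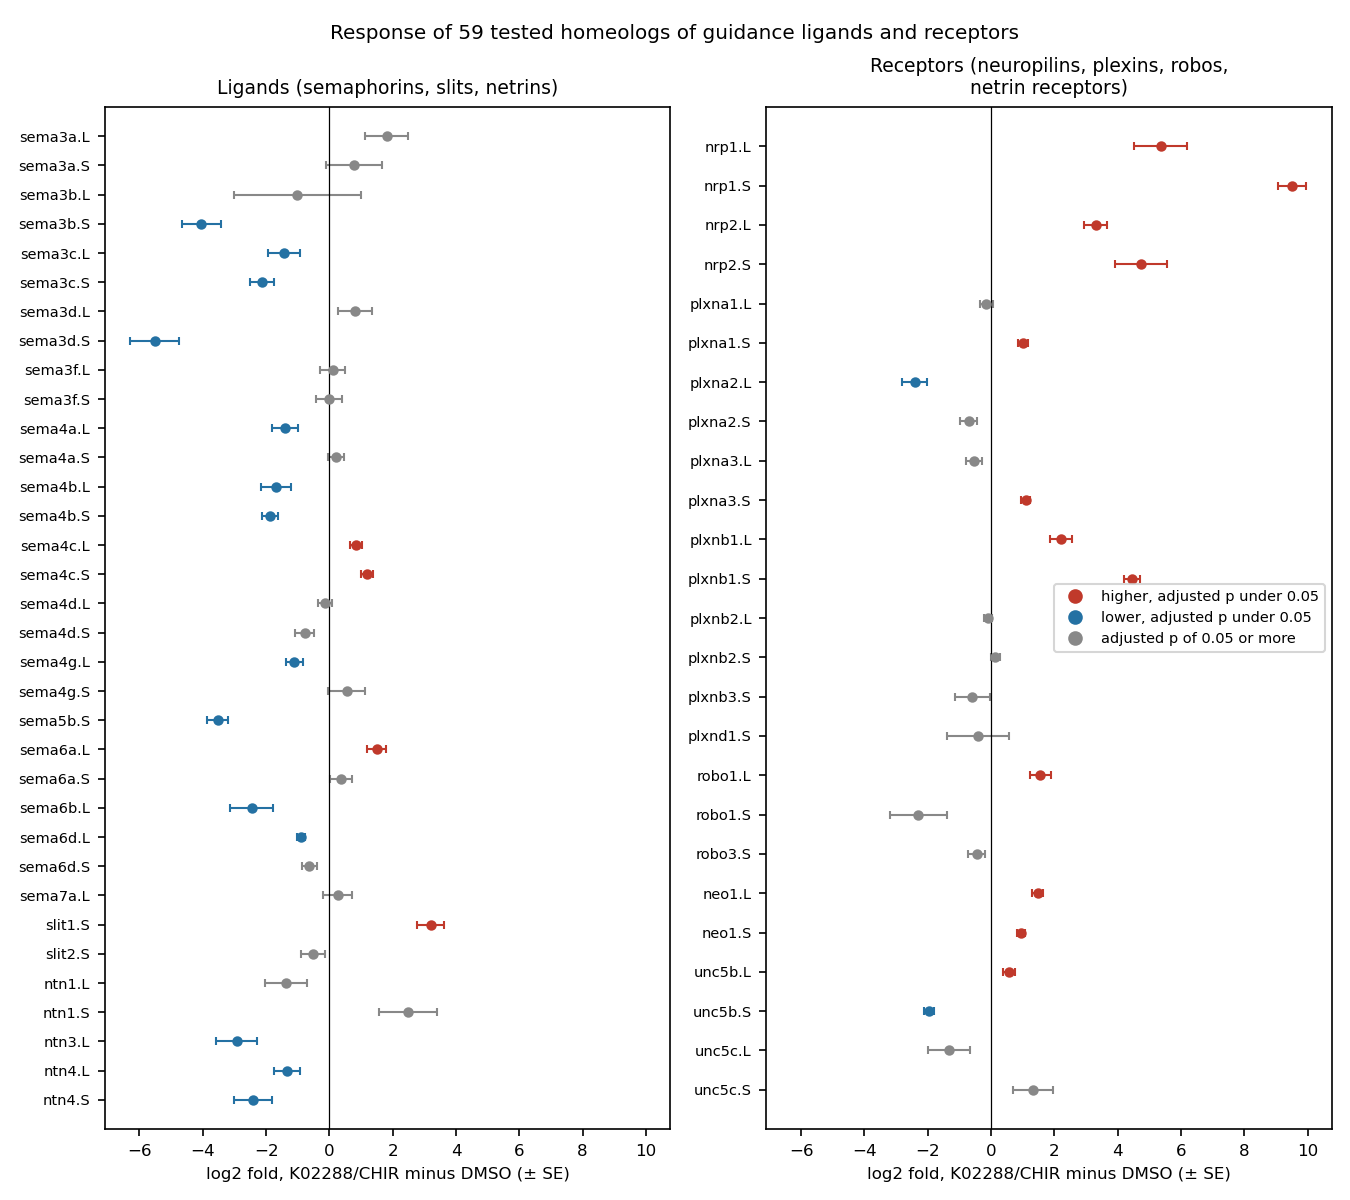
Log2 fold of treated over DMSO explants (x axis, with SE) for the 34 tested ligand homeologs and the 25 tested receptor homeologs, coloured by the limma call. The 4 neuropilins lie between 3.30 and 9.52, and blue points, which mark lower genes, number 14 among ligands and 2 among receptors.

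All 4 neuropilin homeologs were higher in treated explants, and nrp1.S, a copy of the co-receptor of sema3a-type ligands, showed the largest log2 fold among the tested members. It was at 1.84, 5.18 and 6.18 normalized counts in DMSO libraries and at 4215, 2424 and 4844 in treated libraries, a log2 fold of 9.52 ± 0.44 (fold ± SE; adjusted p = 7.18e-05 in limma). The other copy, nrp1.L, went from 3.67, 5.18 and 2.47 to 457, 48.0 and 304, with treated library b far below a and c. Its log2 fold was 5.35 ± 0.84 (adjusted p = 0.00184 in limma), which became 4.72 without treated library a and 6.33 without b. Both copies had at most 6.18 counts in any control and at least 48.0 in any treated library. nrp2, the co-receptor preferred by sema3f, was at 16.5, 26.9 and 34.6 in DMSO and 199, 242 and 342 in treated libraries for L, a rise of 3.30 ± 0.37 (adjusted p = 0.000517 in limma). For nrp2.S the controls had 1.84, 4.14 and 0 counts and the treated libraries 25.4, 116 and 89.6, a log2 fold of 4.74 ± 0.83 (adjusted p = 0.00292 in limma), or 4.10 without DMSO library c and 5.39 without treated library a. Treated and control libraries did not overlap for any of the 4. Over all tested genes 64.9% did not overlap and 26.1% were called higher. nrp1.L, nrp1.S and nrp2.S passed the mean filter through treated libraries alone and had to be higher, while nrp2.L had a mean of at least 10 in both groups.

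Class A plexins, the partners of neuropilins, did not move together. Of 6 homeologs 2 rose, 1 fell and 3 did not pass, where 26.1% of all tested genes rose and 29.7% fell. plxna2.L, a copy of a receptor for class 3 and class 6 semaphorins, had 11044, 9018 and 8925 normalized counts in DMSO and 3506, 1192 and 1403 in treated libraries and fell by 2.41 ± 0.39 on the log2 scale (adjusted p = 0.00205 in limma). Library a kept the most plxna2.L among treated libraries, and every treated library was below every control. plxna2.S had 2898, 2649 and 2142 counts in DMSO and 2327, 1201 and 1353 in treated libraries, where treated library a lay within the control range. It did not pass (log2 fold -0.71 ± 0.26, adjusted p = 0.0568 in limma), and it passed with the letter of the library as a block (adjusted p = 0.0247) and without treated library a (adjusted p = 0.00257). The S copies of plxna1 and plxna3 both rose. plxna1.S was at 842, 732 and 892 in DMSO and at 1750.0, 1399.8 and 1788 in treated libraries, a log2 fold of 1.00 ± 0.16 (adjusted p = 0.00184 in limma). plxna3.S went from 705, 764 and 747 to 1475, 1811 and 1467, a log2 fold of 1.09 ± 0.14 (adjusted p = 0.000843 in limma). Their L copies did not pass. plxna1.L overlapped between the groups, with 1006, 1193 and 1461 counts in DMSO and 1047, 909.8 and 1351 in treated libraries (adjusted p = 0.573 in limma). plxna3.L had 163, 226 and 172 and 159, 113 and 113 counts, every treated library just below the controls, with a limma adjusted p of 0.111.

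Both copies of plxnb1, the receptor of sema4d, rose, and plxnb1.S had the largest log2 fold among plexins. plxnb1.S gave 287, 284 and 166 normalized counts in DMSO libraries against 5690.1, 4598 and 5452 in the treated ones, a log2 fold of 4.45 ± 0.24 (adjusted p = 7.39e-05 in limma). plxnb1.L went from 613, 347 and 758 to 3194, 1746 and 2949, a log2 fold of 2.22 ± 0.35 (adjusted p = 0.00185 in limma), with library b the lowest in both groups. plxnb2, a receptor of several class 4 semaphorins, had at least 2218 counts in every library for both copies and was close to level. plxnb2.L had 2777, 2493 and 2631 counts in DMSO and 2806, 2372 and 2218 in treated libraries, and the 95% interval of its log2 fold was -0.41 to 0.21. plxnb2.S had 4469, 4439 and 4077 and 5405, 4089 and 4825, with an interval of -0.19 to 0.45, so changes of 2-fold lay outside both intervals. Other plexins had low counts. plxnb3.S had 64.3, 32.1 and 29.6 counts in DMSO and 15.1, 22.2 and 50.5 in treated libraries, and plxnd1.S, a copy of the sema3e receptor, 43.2, 14.5 and 4.94 and 28.3, 14.2 and 2.86. In plxnd1.S the libraries fell into the same order, a above b above c, in both groups. plxnd1.L, at 1.24 to 12.398 counts, and plxnc1.L, a copy of the sema7a receptor, at 0 to 2.76, were not tested.

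**Figure D2:**
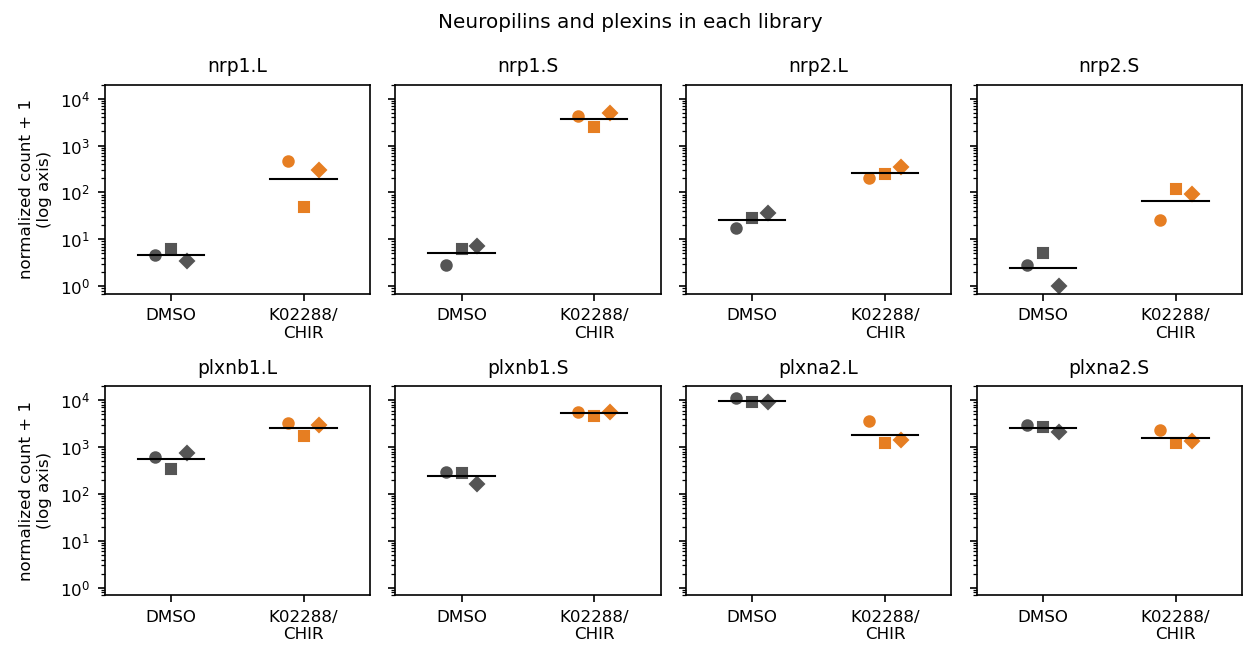
Normalized count + 1 (log axis) of the neuropilins, plxnb1 and plxna2 in each DMSO and K02288/CHIR library, with circles for library a, squares for b and diamonds for c, and a line at the mean of the log values. The treated libraries lie above the controls for both nrp and plxnb1 pairs and below them for plxna2.L, and overlap them for plxna2.S.

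Class 3 semaphorins, the secreted ligands of these neuropilins, had few calls besides those whose direction the mean filter fixed. Of 10 homeologs tested 4 fell and none rose by limma, where 29.7% of all tested genes fell. Of the 4, sema3d.S and sema3b.S passed the mean filter through DMSO libraries alone and had to be lower, which leaves 2 of 8, the copies of sema3c, called among those with a mean of at least 10 in both groups. By edgeR and DESeq2, 1, sema3a.L, passed as higher. At an unadjusted limma p under 0.05, 1 member was higher, sema3a.L. sema3d.S had 153, 204 and 331 normalized counts in DMSO and 14.1, 0.889 and 2.86 in treated libraries and fell by 5.51 ± 0.78 on the log2 scale (adjusted p = 0.0012 in limma), with log2 folds of -6.34 without treated library a and -4.84 without b. Its partner copy sema3d.L overlapped between the groups, at 182, 171 and 259 in DMSO and 826, 184 and 285 in treated libraries (log2 fold 0.81 ± 0.53, adjusted p = 0.235 in limma), with the high value in treated library a. sema3b.S gave 39.5, 30.0 and 18.5 in DMSO libraries against 1.88, 0.889 and 0 with the compounds. These were 87 reads in all controls together and 3 in the treated group, a ratio of 32.7 with a 95% counting interval of 10.8 to 162 (adjusted p = 0.00166 in limma). sema3b.L was seen mostly in library a of both groups, with 133, 1.04 and 1.24 counts in DMSO and 36.8, 0 and 0.954 in treated libraries, and its groups could not be told apart (adjusted p = 0.694 in limma). Both copies of sema3c, a ligand that also directs cardiac crest in the mouse, were called lower. sema3c.S went from 52.3, 46.6 and 63.0 to 16.0, 8.89 and 10.5, a log2 fold of -2.13 ± 0.38 (adjusted p = 0.00333 in limma). sema3c.L went from 66.1, 45.6 and 38.3 to 8.48, 24.9 and 23.8, a log2 fold of -1.44 ± 0.51 (adjusted p = 0.0462 in limma). This did not hold with the library block (adjusted p = 0.0724), in the edgeR test (adjusted p = 0.055), under upper quartile scaling (0.0795), without a filter (0.0692), and without DMSO library a (adjusted p = 0.142), b (0.098) or c (0.0731) or treated library a (0.0777) or c (0.0593).

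sema3a, whose protein repels axons through nrp1, had low counts in all libraries. sema3a.L had 6.43, 10.4 and 19.8 counts in DMSO and 16.0, 62.3 and 68.7 in treated libraries, so only treated a fell within the control range. It did not pass by limma (log2 fold 1.81 ± 0.69, adjusted p = 0.0592) and was higher with the library block (adjusted p = 0.0173), without treated library a (0.00836), under upper quartile scaling (0.0424), in the edgeR test (0.0444) and with DESeq2 (0.0194). sema3a.S had 3.67, 35.2 and 16.1 and 9.42, 32.9 and 41.0, with the lowest value in library a of each group. sema3f, a repellent that acts through nrp2, did not pass in either copy. sema3f.L had 1415, 1579.5 and 1218 counts in DMSO and 2300.4, 764 and 1906 in treated libraries, and sema3f.S 1424, 1819 and 1105 and 1750.0, 719 and 2218. The controls lay inside the range of the treated libraries for both copies, with treated b the lowest, and the 95% intervals of the log2 fold were -0.84 to 1.04 and -1.01 to 0.99. Without treated library b, sema3f.L passed as higher (log2 fold 0.58, adjusted p = 0.0375 in limma). sema3e.L and sema3e.S, at 0 to 5.18 counts in controls and 3.56 to 42.9 in treated libraries, were not tested.

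Class 4 semaphorins, which are membrane-bound, changed in both directions, with 4 of 10 homeologs lower and 2 higher. Over all tested genes 29.7% were lower and 26.1% higher. sema4b fell in both copies, sema4b.S from 526, 376 and 429.8 to 96.1, 121 and 145 normalized counts (log2 fold -1.88 ± 0.24, adjusted p = 0.000821 in limma) and sema4b.L from 62.4, 96.3 and 90.2 to 24.5, 13.3 and 44.8 (log2 fold -1.69 ± 0.48, adjusted p = 0.0221 in limma). The sema4b.L call was lost without DMSO library b (adjusted p = 0.0725) or c (0.0696). sema4c, a ligand of plxnb2, rose in both copies. sema4c.S was at 912, 799 and 872 in DMSO and 2499, 1698 and 1755 in treated libraries (log2 fold 1.18 ± 0.18, adjusted p = 0.00166 in limma), and sema4c.L at 506, 523 and 356 and 774, 866 and 793 (log2 fold 0.83 ± 0.19, adjusted p = 0.00926 in limma). Every treated library exceeded every control for both sema4c copies. sema4a.L fell from 2900.2, 1406 and 2470.2 to 1235, 478 and 935 (log2 fold -1.40 ± 0.41, adjusted p = 0.0236 in limma), which did not hold without DMSO library a (adjusted p = 0.078) or c (0.0733) or treated library b (0.0513) or c (0.0516). sema4a.S overlapped, with 2087, 1963 and 2929.7 and 3131, 1889 and 3188 counts. sema4g.L fell from 631, 668 and 676 to 455, 240.1 and 259 (log2 fold -1.11 ± 0.26, adjusted p = 0.0105 in limma), and sema4g.S was low at 6.18 to 24.9 counts over all libraries. sema4d, the ligand of plxnb1, did not pass in either copy. sema4d.L had 466, 473 and 445 counts in DMSO and 499, 466 and 311 in treated libraries. sema4d.S had 155, 168 and 121 and 74.4, 118 and 70.6, lower in each treated library (log2 fold -0.77 ± 0.30, adjusted p = 0.0614 in limma), and passed with the library block (adjusted p = 0.0407) and without treated library b (adjusted p = 0.0271).

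Among the other membrane semaphorins, sema5b.S, a class 5 member with thrombospondin repeats, showed the largest fall of the 46 members with a mean of at least 10 in both groups. It had 746, 408 and 624 normalized counts in DMSO and 47.1, 36.5 and 67.7 in treated libraries and fell by 3.53 ± 0.33 on the log2 scale (adjusted p = 0.000285 in limma). Of 5 class 6 homeologs tested, 1 rose and 2 fell, where 26.1% of all tested genes rose and 29.7% fell. sema6a.L, a copy of a ligand of class A plexins, rose from 1278, 715 and 787 to 2566, 1826 and 3475 (log2 fold 1.50 ± 0.30, adjusted p = 0.00544 in limma), while sema6a.S overlapped between the groups at 563, 599 and 414 and 923, 401 and 815 (adjusted p = 0.382 in limma). Without treated library b, sema6a.S passed as higher (log2 fold 0.74, adjusted p = 0.0343 in limma). sema6b.L fell from 10.1, 42.5 and 23.5 to 1.88, 2.67 and 5.72 (log2 fold -2.46 ± 0.67, adjusted p = 0.0181 in limma), which was lost without DMSO library c (adjusted p = 0.0579). It passed the mean filter through DMSO libraries alone and had to be lower. sema6d.L fell from 3250.1, 3199 and 3226 to 1864, 1581 and 1771 (log2 fold -0.89 ± 0.12, adjusted p = 0.000862 in limma), a modest change with little spread among libraries. sema6d.S had 1961, 1591 and 2494 and 1723, 1141 and 1065 counts and did not pass (adjusted p = 0.0615 in limma), but passed as lower without treated library a (log2 fold -0.85, adjusted p = 0.0118) or DMSO library b (adjusted p = 0.0479). sema7a.L, a copy of the gene for a lipid-anchored semaphorin, was at 14.2 to 32.0 counts over the 6 libraries, with overlapping groups. sema6b.S (0 to 17.3), sema6c.L (1.24 to 9.54) and sema6c.S (0.889 to 5.72) were not tested.

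**Figure D3:**
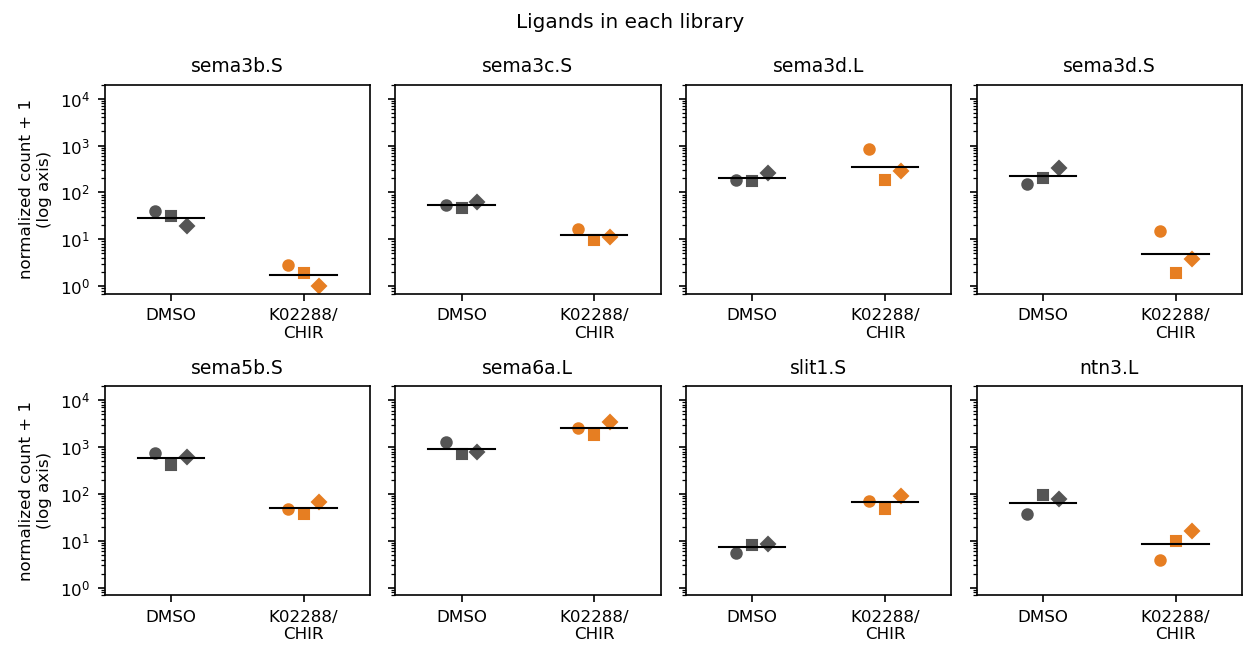
Normalized count + 1 (log axis) of 8 ligand homeologs in each DMSO and K02288/CHIR library, with circles for library a, squares for b and diamonds for c, and a line at the mean of the log values. sema3b.S, sema3c.S, sema3d.S, sema5b.S and ntn3.L are lower in every treated library, sema6a.L and slit1.S are higher, and sema3d.L overlaps.

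In the slit and robo system, slit1.S and robo1.L rose. slit1.S, a copy of a secreted repellent, was at 4.59, 7.25 and 7.41 normalized counts in DMSO and at 68.8, 47.1 and 89.6 in treated libraries, a log2 fold of 3.21 ± 0.42 (adjusted p = 0.000941 in limma). It passed the mean filter through treated libraries alone and had to be higher. slit2.S overlapped between the groups, at 470.2, 829.6 and 1205 and 775, 414 and 504 (adjusted p = 0.291 in limma). robo1.L, a copy of a slit receptor, went from 75.3, 156 and 82.8 to 367, 283 and 246, a log2 fold of 1.56 ± 0.34 (adjusted p = 0.00713 in limma). robo1.S was lower in every treated library, at 24.8, 16.6 and 17.3 in DMSO and 9.42, 0 and 5.72 in treated libraries, and did not pass (log2 fold -2.30 ± 0.91, adjusted p = 0.0675 in limma). robo1.S passed the mean filter through DMSO libraries alone, so its direction was fixed by the filter. Its limma adjusted p was under 0.05 with the library block (0.045), a pseudocount of 5 (0.0356) or without treated library a (0.0271). robo3.S had 816, 1396 and 1035 and 1022, 603 and 751 counts, with overlapping groups (adjusted p = 0.192 in limma). Among the homeologs not tested, robo2.S had no read in controls and 11 reads over the treated libraries, at least 3.25-fold higher against a floor of 3 reads over the control group, and passed when no gene was filtered out (adjusted p = 0.0211 in limma). robo4, which is known from blood vessels in mammals, had 0 to 1.04 counts for L and 0.918 to 4.45 for S.

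Netrin genes had low counts in these explants, and 3 of 5 tested homeologs fell, against 29.7% of all tested genes. Of these, ntn3.L and ntn4.S passed the mean filter through DMSO libraries alone and had to be lower, and ntn4.L was the 1 netrin homeolog with a mean of at least 10 in both groups. ntn3.L went from 35.8, 92.2 and 77.8 to 2.83, 8.89 and 15.3 normalized counts, a log2 fold of -2.93 ± 0.65 (adjusted p = 0.00828 in limma). ntn4, a netrin found in basement membranes, fell in both copies. ntn4.S went from 12.9, 23.8 and 49.4 to 5.65, 3.56 and 2.86 (log2 fold -2.40 ± 0.61, adjusted p = 0.0135 in limma). ntn4.L went from 37.7, 63.2 and 65.5 to 14.1, 27.6 and 21.9 (log2 fold -1.35 ± 0.41, adjusted p = 0.0281 in limma), which did not hold after upper quartile scaling (adjusted p = 0.0538), nor without DMSO library b (0.0922) or c (0.0942) or treated library a (0.0584) or c (0.0605). ntn1, which encodes the netrin of the floor plate, differed between its copies. ntn1.L had 34.0, 13.5 and 12.35 counts in DMSO and 14.1, 3.56 and 4.77 in treated libraries (log2 fold -1.36 ± 0.66, adjusted p = 0.121 in limma), with the highest value of each group in library a, and passed as lower with the library block (adjusted p = 0.0397) and without treated library a (adjusted p = 0.0433). ntn1.S had 1.84, 3.11 and 3.71 and 78.2, 5.34 and 18.1, higher in every treated library (log2 fold 2.48 ± 0.93, adjusted p = 0.0557 in limma). It passed as higher in the edgeR test (adjusted p = 0.0308), with DESeq2 (0.00489), under upper quartile scaling (0.0403) and without treated library b (0.0153). ntn1.L passed the mean filter through DMSO libraries alone and ntn1.S through treated libraries alone, so these directions were fixed by the filter. ntn5.S, below the filter, was at 11.0, 9.32 and 12.35 in controls, 31 reads, and had no read in treated libraries, at least 11.7-fold lower against a floor of 3 reads over the treated group. It passed when no gene was filtered out (adjusted p = 0.000671 in limma). ntn5.L (0 to 3.56 counts) and ntn3.S (0 to 0.942) had no read in controls.

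Of the netrin receptors, neo1, whose protein also binds repulsive guidance molecules, rose in both copies. neo1.L was at 928, 842 and 939 normalized counts in DMSO and at 2204, 2222 and 3209 in treated libraries, a log2 fold of 1.47 ± 0.18 (adjusted p = 0.000676 in limma). neo1.S went from 1507, 1329 and 1268 to 2701, 2481 and 2730.4, a log2 fold of 0.95 ± 0.12 (adjusted p = 0.000898 in limma), and neither copy overlapped between the groups. dcc, the attractive netrin receptor of axons, was below the filter in both copies. dcc.L had 2.76, 6.21 and 12.35 in DMSO and 2.83, 0.889 and 15.3 in treated libraries, with overlapping groups. dcc.S had 17.4, 6.21 and 8.65 and 0.942, 2.67 and 0, lower in every treated library, and passed when no gene was filtered out (log2 fold -2.50, adjusted p = 0.0209 in limma). The repulsive receptor unc5b showed opposite calls in its copies. unc5b.S fell from 4074, 3412 and 2906 to 945, 927 and 778 (log2 fold -1.96 ± 0.17, adjusted p = 0.000202 in limma), with every treated library under every control. unc5b.L was at 2309, 1677 and 1371 in DMSO and at 2842, 2520.3 and 2418 in treated libraries (log2 fold 0.57 ± 0.20, adjusted p = 0.0483 in limma). This did not hold in the edgeR test (adjusted p = 0.0688), with DESeq2 (0.0573), without a filter (0.0613), and without DMSO library b (0.119) or c (0.132) or treated library a (0.097), b (0.0949) or c (0.0864). unc5c overlapped between the groups in both copies, with 18.4, 49.7 and 23.5 and 5.65, 8.004 and 24.8 counts for L (adjusted p = 0.128 in limma) and 9.18, 23.8 and 18.5 and 54.7, 17.8 and 74.4 for S (adjusted p = 0.114 in limma). unc5c.L passed as lower without treated library c (log2 fold -1.90, adjusted p = 0.0454) and unc5c.S as higher without treated library b (log2 fold 1.93, adjusted p = 0.0263). unc5a.S (0 to 1.24) and unc5d.S (0 to 0.918) were not tested.

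Whether the L and S copies of a symbol responded differently was tested directly on the log2 ratio of L to S in each library. Both copies were tested for 25 symbols, and the response differed for 12 of them (48%) by limma with an adjusted p under 0.05, against 35.1% of all 5796 pairs. The L copy had the higher fold in 4 of the 12 and the S copy in 8. In sema3d and robo1 the S copy had passed the mean filter through DMSO libraries alone and had to be lower. The filter thus favoured a higher fold of L in these pairs, and their values below are a description. Both nrp1 copies had passed through treated libraries alone and had to be higher. The largest difference was that of sema3d, where L took 43.9% to 54.2% of the pair's normalized counts in DMSO libraries and 98.3% to 99.5% in treated libraries, an L minus S response of 6.32 ± 0.30 on the log2 scale (adjusted p = 0.000707 in limma). For unc5b the share of L went from 32.1% to 36.2% to 73.1% to 75.6% (L minus S 2.53 ± 0.14, adjusted p = 0.00084 in limma), with no overlap of the shares between the groups. robo1 also shifted to L, from 75.2% to 90.4% to 97.5% to 100% (L minus S 3.86 ± 0.92, adjusted p = 0.0239 in limma), with a difference of 2.86 without treated library b and a limma adjusted p of 0.0723 without DMSO library c. sema6a shifted from 54.4% to 69.4% to 73.6% to 82.0% L (L minus S 1.13 ± 0.32, adjusted p = 0.0392 in limma). This did not hold with the library block (adjusted p = 0.0831), without a filter (0.0574) and without DMSO library a (0.0508), b (0.0909) or c (0.0841) or treated library b (0.104) or c (0.111).

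Of the 12 differing pairs, the 8 in which S had the higher fold were nrp1, ntn1, unc5c, plxnb1, plxna2, plxna3, sema4a and plxna1. The L minus S response was -4.16 ± 0.73 for nrp1 (adjusted p = 0.00947 in limma; -3.49 without treated library b), where L made up 28.6% to 66.7% in controls, on few reads, and 1.94% to 9.78% in treated libraries. For ntn1 it was -3.85 ± 0.72, the share of L going from 76.9% to 94.9% to 15.3% to 40.0%. Since ntn1.L passed the filter through DMSO libraries alone and ntn1.S through treated libraries alone, this sign was fixed by the filter, and ntn1 is counted among the 12 as a description. Without treated library a the mean of ntn1.S missed the filter and the pair was not tested. unc5c, in which neither copy passed with all libraries, went from 55.9% to 67.6% to 9.38% to 31.0% L (L minus S -2.65 ± 0.54, adjusted p = 0.0147 in limma; -2.07 without treated library a, and adjusted p = 0.0512 without DMSO library a). In plxnb1, where both copies rose, L went from 55.0% to 82.1% to 27.5% to 35.9% (L minus S -2.23 ± 0.49, adjusted p = 0.0183 in limma), which did not hold without DMSO library a (adjusted p = 0.0543) or treated library b (0.0559) or c (0.0504). Class A plexins shifted to S in all 3 symbols. The share of L went from 54.4% to 62.1% to 37.4% to 43.0% for plxna1, from 77.3% to 80.6% to 49.8% to 60.1% for plxna2 and from 18.7% to 22.8% to 5.87% to 9.75% for plxna3. The L minus S responses were -1.15 ± 0.19, -1.71 ± 0.21 and -1.64 ± 0.25 (adjusted p = 0.00773, 0.00376 and 0.0067 in limma). sema4a went from 41.7% to 58.1% to 20.2% to 28.3% L (L minus S -1.61 ± 0.30, adjusted p = 0.0115 in limma). Among the 13 pairs that did not pass, the 95% interval of L minus S was -0.39 to 0.61 for sema3f and -0.60 to 0.13 for plxnb2, within 1 on the log2 scale. neo1 and sema3b passed with the library block (adjusted p = 0.045 and 0.0188) and not without it (0.0749 and 0.243). Without treated library a, ntn4, sema3c and sema4g passed (adjusted p = 0.0331, 0.0328 and 0.0243). Reads that align to more than 1 place are in neither copy, and made up 4.93% to 11.1% of the reads counted in a library, highest in DMSO library a. Without DMSO library a 22 of the 25 pairs were tested and 7 differed, and the share over all pairs was not computed there. Of the 12, robo1 and ntn1 were then not tested, since robo1.S and ntn1.L missed the mean filter. plxnb1, sema6a and unc5c were tested and did not pass (adjusted p = 0.0543, 0.0508 and 0.0512 in limma). The part of reads that align to more than 1 place was not tested.

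**Figure D4:**
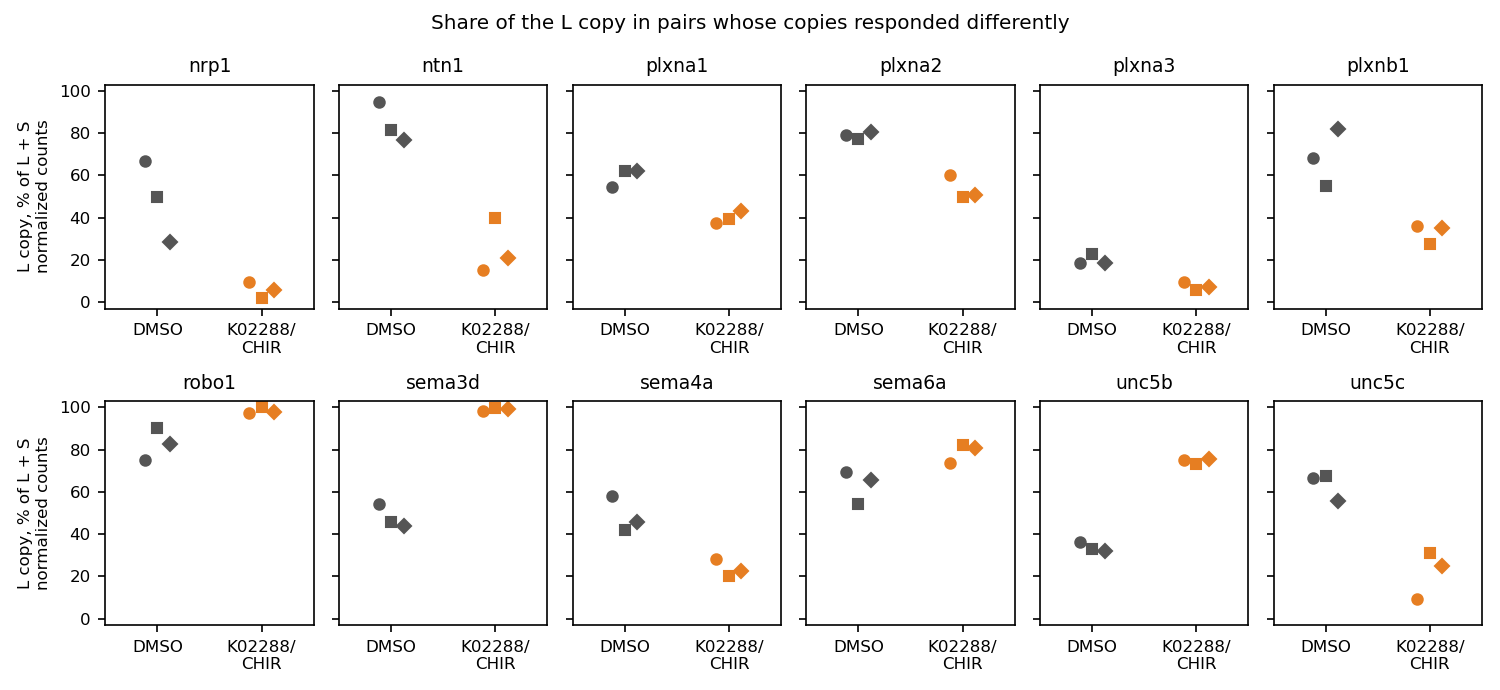
Share of the L copy in the summed normalized counts of L and S (y axis, %) in each DMSO and K02288/CHIR library for the 12 pairs whose responses differed, with circles for library a, squares for b and diamonds for c. The share rises in robo1, sema3d, sema6a and unc5b and falls in the other 8 pairs.

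Co-receptors, other cues and cytoplasmic partners of these receptors were followed as a list of 74 symbols, 62 of which were found, with 108 homeologs. Of 99 tested, 35 rose and 23 fell (35.4% and 23.2%), against 26.1% and 29.7% of all tested genes, with a median log2 fold of 0.07. Among the risers, both copies of crmp1, fyn, pak3 and sdc3 passed the mean filter through treated libraries alone and had to be higher. The same held for dpysl4.L, gpc1.L, l1cam.S and tubb3.L. Among those that fell, fes.L, met.L and met.S passed through DMSO libraries alone and had to be lower. This split was not made over all tested genes. The rises with the smallest limma adjusted p were those of epha4.L (4.07 ± 0.15) and epha4.S (6.83 ± 0.36), an ephrin receptor named in earlier work on these libraries, dpysl3.L, a copy of a gene of the collapsin response mediator family, and lrig1.L, a transmembrane regulator of receptor tyrosine kinases. dpysl3.L was at 20.2, 18.6 and 24.7 normalized counts in DMSO and at 528, 271 and 458 in treated libraries, a log2 fold of 4.20 ± 0.33 (adjusted p = 0.000164 in limma), and lrig1.L at 73.5, 71.5 and 69.2 and 519, 406 and 659, a log2 fold of 2.84 ± 0.24 (adjusted p = 0.000196 in limma). The falls with the smallest limma adjusted p were those of gipc2.S, met.L, trim67.S and ptk2.L. gipc2.S, of a family whose mammalian member GIPC binds the tail of neuropilin, went from 3341, 4114 and 5209.7 to 425, 283 and 243 (log2 fold -3.75 ± 0.26, adjusted p = 0.000118 in limma). Another gene of this family, gipc1.L, overlapped between the groups (log2 fold 0.07, adjusted p = 0.784 in limma). met.L, a copy of the hepatocyte growth factor receptor gene, whose mammalian protein associates with class B plexins, went from 253, 131 and 169 to 7.54, 6.23 and 6.68 (log2 fold -4.52 ± 0.37, adjusted p = 0.000182 in limma). trim67.S, a relative of the netrin pathway ubiquitin ligase gene trim9, had a log2 fold of -3.55 ± 0.29 (adjusted p = 0.000186 in limma), and ptk2.L, a copy of the gene of focal adhesion kinase, -1.84 ± 0.16 (adjusted p = 0.000239 in limma). In contrast to trim67.S, trim9.S rose (log2 fold 2.47 ± 0.26, adjusted p = 0.000404 in limma), and trim9.L did not pass (adjusted p = 0.0625 in limma). The repulsive guidance molecule genes rgma and rgmb, chosen after their values were seen as cues that bind the neo1 protein, rose in all 4 homeologs, by 2.03 ± 0.25 for rgma.L, 0.86 ± 0.28 for rgma.S, 1.53 ± 0.27 for rgmb.L and 1.63 ± 0.38 for rgmb.S (adjusted p = 0.00072, 0.034, 0.00325 and 0.00998 in limma). The rgma.S call was lost without DMSO library a (adjusted p = 0.102) or c (0.0687) or treated library b (0.0968) or c (0.0838).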

How the data were processed

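Bulk RNA sequencing of 6 libraries, 3 per group, was analysed from a deposited table. Its signal per library is, per the file headers and values, a read count divided by 1 size factor per library, computed by the authors. Per the submitters' processing notes the tool was DESeq, with no version. The aligner, read counter, genome build and annotation behind the table were not given in the sources used here. Every one of 184429 values above 0 (100.0%) was a whole number of reads within 0.01, so whole reads were recovered. Left out were 5 summary rows of the read counter, among which reads in no gene made up 10.9% to 12.8% of the reads of a library, and 1 row with a broken name was rejoined. Use of strand in counting is likewise not stated. Of the member symbols, 72 of 76 stood in the RefSeq gene table of assembly Xenopus_laevis_v10.1, which was used for this check only, and no sequences or coordinates are printed.

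The main test was limma with trend on log2(normalized count + 1), for genes with a mean of at least 10, with Benjamini-Hochberg adjustment over all 22932 tested genes and a threshold of 0.05. Fold changes on this scale understate those of low genes. The edgeR quasi-likelihood test and DESeq2 on the recovered reads were alternatives. edgeR called 54.0% of genes. Homeolog pairs were tested by limma on log2(L + 1) - log2(S + 1), adjusted over 5796 pairs. The fits were checked on simulated counts in which few genes changed and libraries were independent. These data differ in both, so the check gives no error rate for them. Column letters a, b and c are shared by both groups and were not matched to the labels' replicate numbers. Deviations of same-letter libraries from their group means correlated by 0.33, 0.40 and 0.32 over tested genes. Those of libraries with other letters correlated by -0.23 to -0.09. Deviations within a group cancel, so the values for same and other letters are not independent. By these values, and not by the labels, the letter was taken as pairing libraries. The main tests did not use this pairing, and a fit with the letter as a block was an alternative. Other alternatives were pseudocounts of 0.5 and 5, no filter, a mean of at least 50, upper quartile and TMM scaling, and leaving out each library. Members, lists and tests were chosen with earlier results of these data known. By the naming rule, values are given for members with a log2 fold of at least 2, for pairs that differ, and for nrp1, nrp2, dcc and neo1, with the 4 list genes of smallest adjusted p in each direction. The other members were added to account for all. Counting intervals and floors (95%, 3 reads) cover counting error only. R 4.3.3 ran limma 3.58.1, DESeq2 1.42.0 and edgeR 4.0.16, next to Python 3.11.15 with scipy 1.17.1 and matplotlib 3.10.9.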

Additional observations from a re-analysis of the deposited data

How the results depend on the processing

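Of the 32 members called, 26 kept direction and call in every alternative that tested them, and the other 6 (ntn4.L, sema3c.L, sema4a.L, sema4b.L, sema6b.L and unc5b.L) lost the call in at least one, with the cause not tested. Members higher numbered 16, and 14 to 19 in the alternatives. Members lower numbered 16, and 9 with a mean of at least 50, which tested fewer genes, 10 to 18 with a library left out (10 without DMSO c) and 14 to 19 in the others. Pairs that differed numbered 12, and 7 to 14 with a library left out (7 of 22 tested without DMSO a) and 9 to 13 in the others. The pathway list counts were 35 higher and 23 lower, and 24 to 40 and 19 to 26 in the alternatives. With the replicate block by library letter, members called numbered 17 higher and 19 lower and differing pairs 13. All genes called numbered 13798 with this block, against 12806 in the main fit. The block changed the calls given above for ntn1.L, plxna2.S, robo1.S, sema3a.L, sema3c.L and sema4d.S, and for the neo1, sema3b and sema6a pairs, and no other call of a member or member pair. Some folds of members that were not called changed sign. Under upper quartile scaling those of plxna1.L (-0.15 to 0.065), plxnb2.L (-0.10 to 0.11), sema4d.L (-0.15 to 0.067) and sema3f.S (-0.012 to 0.20) did. That of sema3f.L went from 0.10 to -0.21 without treated library a. Homeologs with low counts mostly had wider intervals. The 95% interval of the log2 fold had a median width of 3.16 for the 8 tested members with a mean under 20 counts, among them plxnd1.S. It was 1.60 for the other 51, among them sema3b.L with an interval of -5.77 to 3.73. The part of depth in these widths was not tested. A missed threshold with a wide interval does not show that the groups are alike.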
